A study of Rattus norvegicus with 6 samples.

Results

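The nuclear-encoded genes of respiratory complexes II to V were compared between myocardium of obesity-prone (OP) rats and obesity-resistant (OR) rats. Members were the genes of the deposited table whose symbol begins with Sdha, Sdhb, Sdhc, Sdhd, Uqcr, Cox4 to Cox8, Cox10 to Cox19 or Atp5, together with Cyc1. The rule took 63 of 32883 genes, under 61 symbols, because Uqcrb and Cox6b1 each stood on 2 lines. OP rats came from a Sprague Dawley line with a diet-induced, inherited proneness to obesity and received the high fat diet for 12 months. OR rats came from the resistant line of the same background and received standard chow for 12 months, and rats of both lines were enrolled young. RNA of myocardial tissue was sequenced from 3 randomly chosen rats per group, with a single library from each. The groups differ in both line and diet, which cannot be told apart. In whole tissue, fewer cells of a type and less RNA per cell cannot be told apart either.

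Complexes II, III and IV pass electrons from succinate and ubiquinol to oxygen in the inner mitochondrial membrane, and complexes III and IV pump protons as they do so. Complex V, the ATP synthase, lets the protons return and makes ATP. The heart draws most of its ATP from this chain and is therefore rich in the messenger RNAs of its subunits. Complex II is encoded wholly in the nucleus, whereas complexes III, IV and V also hold subunits made from mitochondrial DNA. Several complex IV subunits have a heart and muscle isoform and a widely expressed isoform.

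Levels are given as reads per 1000000 reads assigned to genes (CPM), and they are not divided by gene length, so they were compared between rats and not between genes. The 6 libraries held 10838184 to 12831573 reads, and a single read stood for 0.0779 to 0.0923 CPM. Differences are log2 fold changes of OP over OR rats with their standard error (SE), from limma. The fit covered the 13445 genes that reached 1 CPM in 3 or more libraries, and p-values carry a Benjamini-Hochberg adjustment across that whole set. An adjusted p under 0.05 was required for a call. The cardiomyocyte markers summed to 46282 to 48477 CPM in OP and 47959 to 51558 CPM in OR rats, with 8 of 8 tested and none called (limma). OP replicate 2 stood apart from the other libraries. It was the lowest of the 6 in 36.5% of all genes tested, and its summed fibroblast markers reached 3905 CPM (1985 to 2425 CPM in the other rats), its atrial markers 2611 CPM (784.4 to 1513 CPM) and its skeletal muscle markers 67.0 CPM (15.8 to 21.5 CPM). For members described here whose log2 fold change moved by more than 1.5 times or changed sign when it was left out, the value without it is given too. Schwann cell markers also separated the groups, at 39.6 to 75.6 CPM in OP and 25.3 to 26.2 CPM in OR rats with 2 of 4 called higher (limma), as did the sum of 5 smooth muscle and pericyte markers, at 673 to 875 and 583 to 646 CPM. Of 5 macrophage markers Ptprc, the common leukocyte antigen, was called lower (−0.61, adjusted p = 0.0373 from limma), while their sums overlapped at 70.6 to 109 CPM in OP and 83.5 to 92.8 CPM in OR rats. The part of these markers in the results was not tested. The brown adipocyte marker Ucp1 was at 0 to 0.10 CPM.

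Complex III held the clearest difference among the members. Uqcrq, a small subunit of that complex, rose in the high-fat diet-fed OP rats and was the only member called, 1 of 58 tested (1.72%), against 453 of all 13445 genes (3.37%, with 1.5% called higher and 1.87% called lower). Of the other 57 members tested none was called in limma or with voom on the recovered reads, and at an unadjusted p under 0.05 there were 11 higher and 0 lower. Small differences in the same direction were common: 51 of 58 members had a log2 fold change above 0, against 50.5% of all genes. The median log2 fold change of the members was 0.13, and that of all genes 0.00. It was 0.07 without OP replicate 2.

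**Figure D1:**
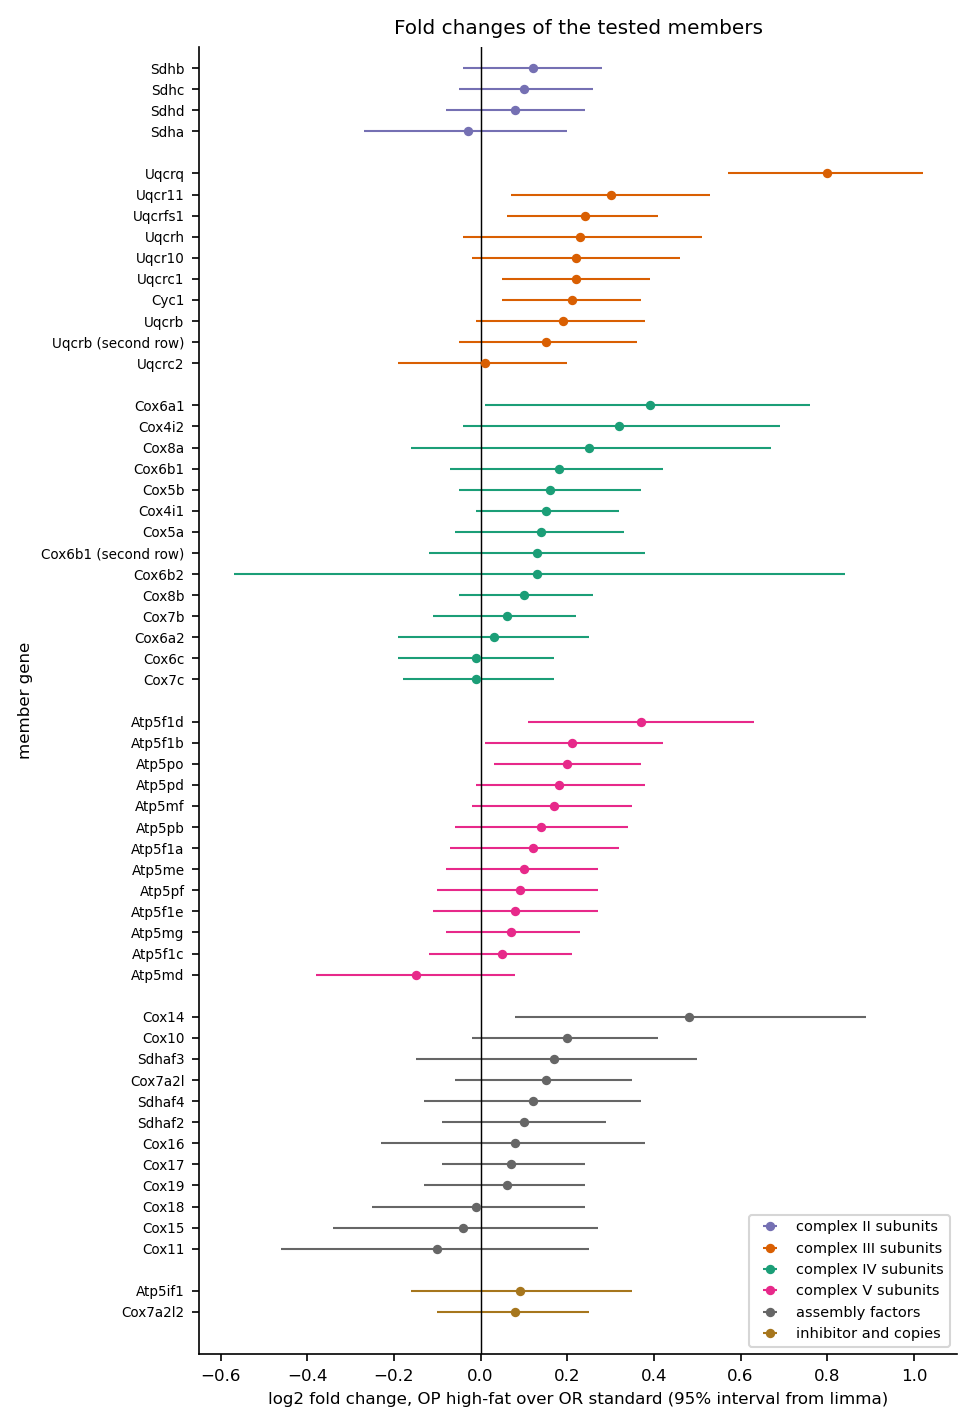
Log2 fold change of 55 of the 58 tested members (horizontal axis, OP high-fat over OR standard), grouped by complex or role, with its 95% interval from limma. Uqcrq, at 0.80, lies to the right of every other member, and most of the intervals cross 0.

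At an unadjusted p under 0.05, 12 of the 58 members were higher in OP rats (20.7%, against 10.6% of all genes) and none was lower (11.7% of all genes). Without rescaling between libraries the count higher was 6 (7.32% of all genes), and without OP replicate 2 it was 15 of 57 (11.4% of all genes). In 15 of 58 members every OP rat lay above every OR rat, 25.9% against 10.4% of all genes. In 1 member, Atp5md, every OP rat lay below, which held for 17.7% of all genes. After rescaling between libraries the members with no overlap were 25 higher (15.2% of all genes) and 0 lower (14.3% of all genes). With OP replicate 2 left out and no rescaling they were 21 higher (17.9% of all genes) and 6 lower (22.4% of all genes). The data set bounds on the sizes: in 51 of 58 members the upper end of the 95% interval lay under a 1.5-fold increase. The same held for 10856 of all 13445 genes.

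All 63 members together, with the assembly factors, the inhibitor and the copies, made up 2.99% to 3.27% of the reads in a library. Their CPM summed to 31959, 32717 and 32487 in OP replicates 1, 2 and 3 and to 30402, 29936 and 30156 in OR replicates 1, 2 and 3. The ratio of the group means was 1.074. The sum for complex II was 1.002 times that of OR rats, for complex III 1.121 times, for complex IV 1.047 times and for complex V 1.083 times. In complexes III and V every OP rat summed above every OR rat, whereas the groups overlapped in complexes II and IV.

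**Figure D2:**
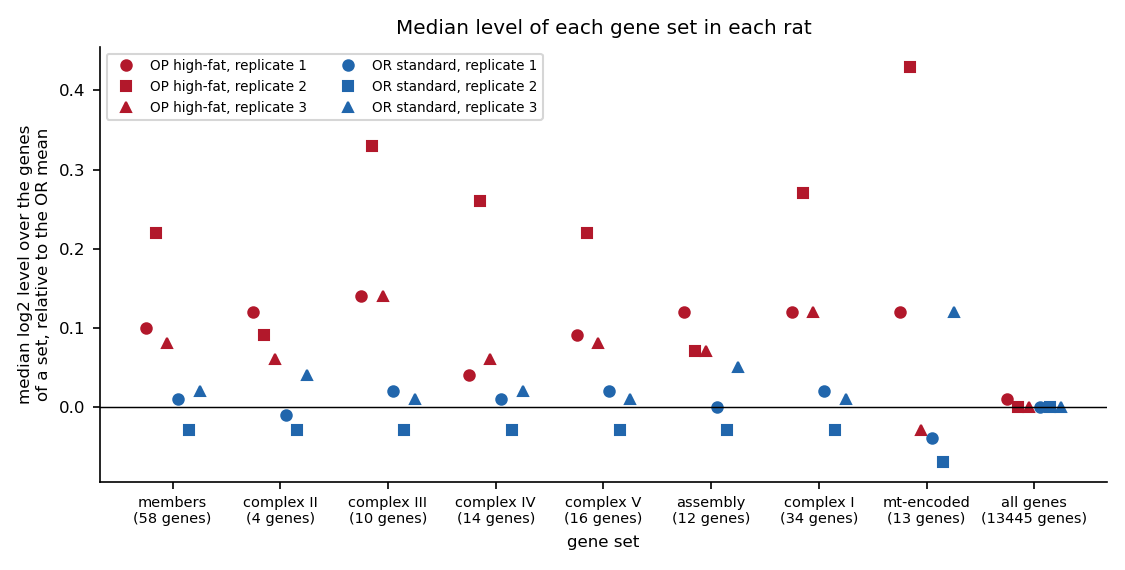
Median log2 level over the genes of each set in each rat (vertical axis, relative to the mean of the OR rats, after rescaling between libraries). Squares mark replicate 2: over the members the OP medians are 0.10, 0.22 and 0.08, and OP replicate 2 is the highest rat in complexes I, III, IV and V and in the mitochondrially encoded genes.

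Complex II, succinate dehydrogenase, links the citric acid cycle to the chain. None of its 4 genes was called in limma or with voom, and none passed an unadjusted p under 0.05. Sdha, the flavoprotein that oxidises succinate, stood at 1360, 1028 and 1325 CPM in OP rats and at 1294, 1290.2 and 1321 CPM in OR rats. OP replicate 2 was the lowest rat, and the log2 fold change was −0.03 (SE 0.10, adjusted p = 0.88 from limma) with it and 0.07 without it. Sdhb, the iron-sulphur subunit, stood at 720.2, 651 and 698 CPM in OP and at 655, 662 and 655 CPM in OR rats. The membrane anchors Sdhc and Sdhd had log2 fold changes of 0.10 (SE 0.07) and 0.08 (SE 0.07), and Sdhb 0.12 (SE 0.07). The 95% intervals of these 3 genes reached no higher than 0.28.

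Complex III, the cytochrome bc1 complex, hands electrons from ubiquinol to cytochrome c. All 10 of its nuclear lines tested had a log2 fold change above 0, with a median of 0.22 (0.15 without OP replicate 2). In 7 of 10 every OP rat lay above every OR rat (10.4% of all genes), and 5 of 10 were higher at an unadjusted p under 0.05 (10.6% of all genes). Uqcrq stood at 320.3, 393 and 347 CPM in OP rats and at 217, 206 and 206 CPM in OR rats. The lowest OP rat was thus well above the highest OR rat. Its log2 fold change was 0.80 (1.74-fold, SE 0.10, 95% interval 0.57 to 1.02, adjusted p = 0.00743 from limma and 0.00859 with voom, higher in 3 of 3 OP rats).

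The size of the Uqcrq difference was 0.69 to 0.87 whichever library was left out, and it stayed called without any one OP rat (adjusted p = 0.0013 to 0.0206 from limma). Without OR replicate 1, 2 or 3 the adjusted p was 0.0562, 0.0514 and 0.0542. Without those libraries the number of genes called in the whole table fell from 453 to 57, 82 and 63. In the GRCr8 annotation of RefSeq, Uqcrq overlaps Gdf9, a growth factor gene of the oocyte, and the sources used here do not give the strand setting of the counting. Gdf9 itself stood at 0 to 0.30 CPM in these hearts. The neighbouring Aff4, a scaffold of the transcription elongation complex, differed by −0.18 on the log2 scale (SE 0.07, adjusted p = 0.204 from limma), and Leap2, which encodes a secreted peptide of the liver and gut, −0.12 (SE 0.20, adjusted p = 0.772).

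The promoter of Uqcrq is shown because it is the called member, and that of Uqcrc1 because this core subunit was called once OP replicate 2 was left out. The windows of Uqcrfs1 and Atp5f1d, which were also read, held none of the motifs searched and are not printed. Each sequence is the 250 bases before the start of the RefSeq transcript on GRCr8, read 5′ to 3′ on the strand of the gene. Capitals mark matches, on either strand, to 3 motifs of factors known to act on respiratory genes: GCGCA and GCGC with any base between them (nuclear respiratory factor 1), CCGGAAG (ETS family, which includes GABP) and AAGGTCA (estrogen-related receptors). The Uqcrq window lies at chr10:38089979-38090228 on the minus strand, and the Uqcrc1 window at chr8:118467973-118468222 on the plus strand.
Uqcrq: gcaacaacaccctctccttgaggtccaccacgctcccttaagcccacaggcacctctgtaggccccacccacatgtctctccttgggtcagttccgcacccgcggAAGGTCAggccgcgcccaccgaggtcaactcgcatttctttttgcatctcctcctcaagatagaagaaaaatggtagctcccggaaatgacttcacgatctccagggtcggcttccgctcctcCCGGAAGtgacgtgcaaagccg
Uqcrc1: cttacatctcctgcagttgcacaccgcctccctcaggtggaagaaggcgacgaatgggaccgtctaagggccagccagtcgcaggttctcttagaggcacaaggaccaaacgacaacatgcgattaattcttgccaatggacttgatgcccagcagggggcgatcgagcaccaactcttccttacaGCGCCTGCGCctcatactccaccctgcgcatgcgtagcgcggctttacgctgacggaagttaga

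Uqcrq held CCGGAAG at positions −22 to −16 from the start and AAGGTCA at −145 to −139, which do not overlap, and Uqcrc1 held the nuclear respiratory factor 1 motif at −64 to −55. A promoter was on hand for 53 of the 61 member symbols. Among these 53, CCGGAAG was found in 18 (34%), against 14.1% of 11020 promoters of the genes tested and 7.27% of all 33469. The nuclear respiratory factor 1 motif was in 8 (15.1%, against 8.3% and 3.75%) and AAGGTCA in 6 (11.3%, against 2.64% and 3.99%). These matches are letters in a window and describe the members only. Uqcrq was the one gene with AAGGTCA among the complex III promoters on hand, while members that were not called, such as Atp5f1a, also held it. CCGGAAG was shared with Uqcrc2 and Uqcrh, which were not called.

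The electron carriers Cyc1 and Uqcrfs1 and the core subunit Uqcrc1 differed less than Uqcrq. Cyc1, the cytochrome c1 that passes electrons on, stood at 1020.25, 1022 and 1017 CPM in OP rats and at 929, 899 and 907 CPM in OR rats. The OP rats lay close together and above all OR rats, with a log2 fold change of 0.21 (with an SE of 0.07, adjusted p = 0.135 from limma). Uqcrfs1, the Rieske iron-sulphur protein, stood at 892, 881 and 849 CPM in OP and at 785, 735 and 786 CPM in OR rats (0.24, SE 0.08, adjusted p = 0.129). Uqcrc1, a core subunit, stood at 1456, 1294 and 1420.3 CPM in OP and at 1231, 1230.3 and 1238 CPM in OR rats. Again every OP rat lay above every OR rat, and the log2 fold change was 0.22 (SE 0.07, adjusted p = 0.137). Without OP replicate 2 it was 0.25 with an adjusted p of 0.0426 from limma, which added Uqcrc1 to Uqcrq as a second called member. In that fit 378 of all 13309 genes were called higher, and 5.82% were called in either direction.

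Uqcrc2, the partner of Uqcrc1 in the core, did not share this pattern. It stood at 1207, 1010.2 and 1176 CPM in OP rats and at 1114, 1167 and 1199 CPM in OR rats, with overlap and a log2 fold change of 0.01 (with an SE of 0.08, adjusted p = 0.963 from limma), or 0.07 without OP replicate 2. Uqcr11, a small subunit, stood at 416, 510.2 and 439 CPM in OP and at 391, 373 and 379 CPM in OR rats (0.30, SE 0.10, adjusted p = 0.134, and 0.19 without OP replicate 2). The remaining lines were Uqcr10, Uqcrh, known as the hinge protein, and both lines of Uqcrb, with log2 fold changes from 0.15 to 0.23. OP replicate 2 was the highest rat in each of these 4, and without it they were 0.08 to 0.11. RefSeq names 4 copies after Uqcrb, so reads may be divided between its lines.

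**Figure D3:**
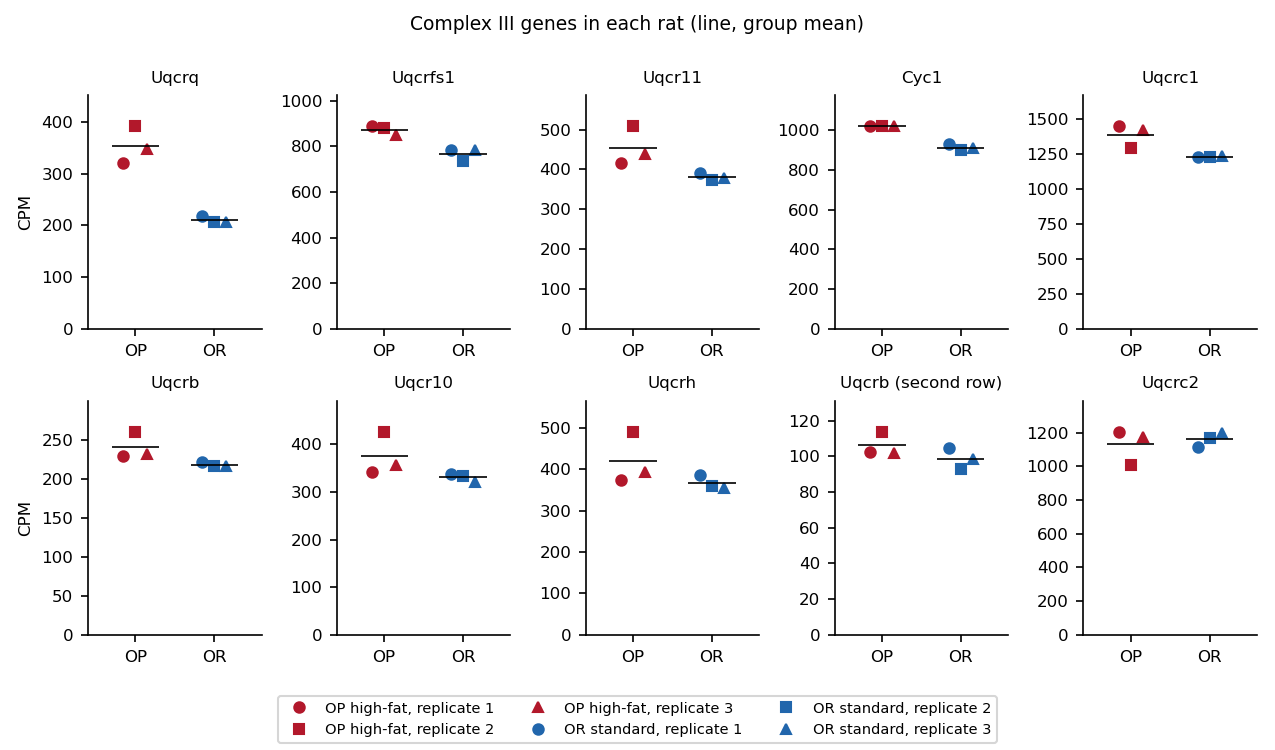
CPM of the 10 complex III lines in each rat, with the group mean as a line and the vertical axis from 0. In Uqcrq the OP rats (320.3 to 393 CPM) are separated from the OR rats (206 to 217 CPM) by more than the spread of either group, and in Uqcrc2 the groups overlap.

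Complex IV, cytochrome c oxidase, reduces oxygen to water. Of 14 tested lines none was called in limma or with voom. At an unadjusted p under 0.05 there was 1 higher (7.14%, against 10.6% of all genes) and 0 lower (11.7% of all genes). The median log2 fold change was 0.13 (0.06 without OP replicate 2). Cox4i1, which joins the catalytic core early in assembly, stood at 1306, 1335 and 1334 CPM in OP rats and at 1252, 1214 and 1231 CPM in OR rats. The groups did not overlap, and the log2 fold change was 0.15 (SE 0.07, adjusted p = 0.257 from limma). Cox4i2, its alternative isoform, known from oxygen-sensing tissue, was weakly expressed at 18.1, 12.3 and 18.1 CPM in OP and 13.4, 14.6 and 11.7 CPM in OR rats. OP replicate 2 fell among the OR rats here (0.32, SE 0.16, adjusted p = 0.276). Without it the log2 fold change was 0.48. Cox5b differed by 0.16 on the log2 scale (SE 0.09, adjusted p = 0.328), and the better covered line of Cox6b1 by 0.18 (SE 0.11, adjusted p = 0.359). Without OP replicate 2 these were 0.07 and 0.06.

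The widely expressed isoforms Cox6a1 and Cox8a were highest in OP replicate 2. Cox6a1 stood at 181, 283 and 205 CPM in OP rats and at 184, 164 and 173 CPM in OR rats. Its log2 fold change was 0.39 (SE 0.16, unadjusted p = 0.0465 and adjusted p = 0.217 from limma), and 0.18 without OP replicate 2. Cox8a stood at 77.7, 131 and 93.5 CPM in OP and at 88.2, 85.1 and 82.8 CPM in OR rats (0.25, SE 0.18, adjusted p = 0.44), and without that rat its log2 fold change was 0.03. Their heart and muscle counterparts had smaller log2 fold changes in the full set of rats. Cox6a2 stood at 819, 956 and 815.3 CPM in OP and at 894, 852 and 872 CPM in OR rats (0.03, SE 0.10, adjusted p = 0.883, and −0.07 without OP replicate 2), and Cox8b at 409, 419 and 428 CPM in OP and at 409, 392 and 410.1 CPM in OR rats (0.10, SE 0.07, adjusted p = 0.41). Cox7c and Cox6c, small subunits without such isoforms in the list, had log2 fold changes of −0.01 (SE 0.08 for each), and −0.07 without OP replicate 2.

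Cox7a1, the heart and muscle isoform of subunit 7a, was listed at 0.95, 0.65 and 0.35 CPM in OP and 0.85, 0.55 and 0.70 CPM in OR rats, which were 4 to 11 reads per library. It did not reach 1 CPM and had no test, and no line named Cox7a2 was analysed here. Cox7a1 is known as an abundant transcript of heart muscle. On GRCr8, RefSeq shows it overlapping its neighbour Capns1, and whether the counting assigned its reads to another line was not tested, so these values are not read as its level. Cox6b2, the isoform known from testis, was tested at 0.70 to 1.4 CPM (8 to 15 reads), which leaves its log2 fold change between −0.57 and 0.84. Cox8c, Cox7b2, Sdhaf1 and Cox6c-ps1, which RefSeq names as a pseudogene, were at 0 in all 6 libraries, where a floor of 3 reads allows up to 0.234 to 0.277 CPM (counting error only). With Cox7a1 these make up the 5 members not tested.

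Ratios of isoforms within a library do not depend on the scaling between libraries. The ratios of 4 pairs of cytochrome c oxidase subunits were compared, and with 3 rats against 3 the smallest p of the exact two-sided permutation test is 0.1, or 0.4 adjusted over the 4 pairs where a single pair reaches it. Cox6a2 over Cox6a1 was 4.53, 3.37 and 3.97 in OP rats and 4.87, 5.18 and 5.03 in OR rats. Every OP rat lay below every OR rat, by 0.35 on average on the log2 scale (exact permutation p = 0.1, adjusted p = 0.4). The other 3 pairs overlapped, with exact permutation p-values of 0.6 to 1.0, and for Cox8b over Cox8a OP replicate 2 was the lowest rat at 3.20 (4.58 to 5.27 in the others). Cox6b1 over Cox6b2 used the better covered line of Cox6b1 and rested on 8 to 15 reads of Cox6b2 per library, so its ratio is imprecise.

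**Figure D4:**
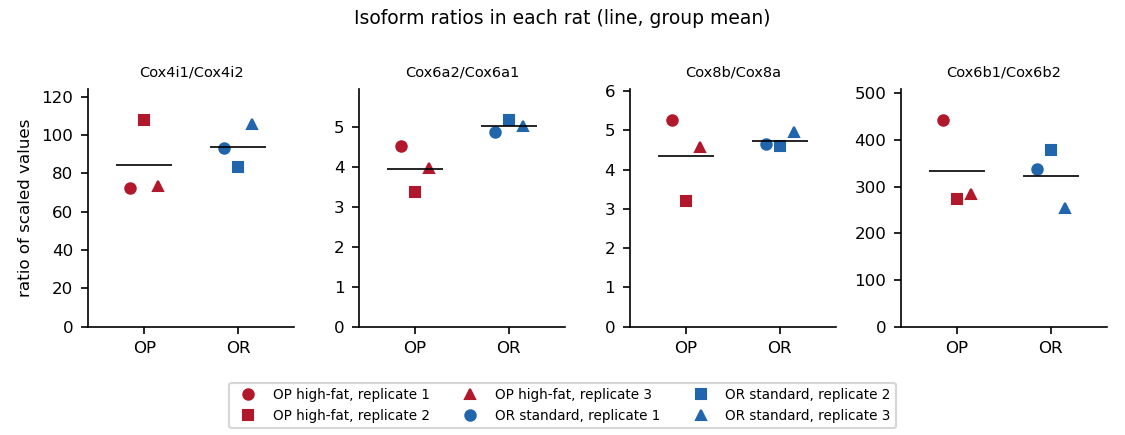
Ratio of the scaled values of 4 isoform pairs in each rat, with the group mean as a line and each vertical axis from 0. Cox6a2/Cox6a1 (3.37 to 4.53 in OP and 4.87 to 5.18 in OR rats) is the pair in which the groups do not overlap.

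Complex V couples the return of protons to ATP synthesis. Of its 16 tested genes none was called in limma or with voom, and 15 of 16 had a log2 fold change above 0. An unadjusted p under 0.05 was reached by 5 higher (31.2%, against 10.6% of all genes) and 0 lower (11.7% of all genes). Atp5f1b, the catalytic beta subunit, stood at 5091, 5229 and 5206 CPM in OP rats and at 4613, 4688 and 4558 CPM in OR rats. The groups did not overlap, and the log2 fold change was 0.21 (SE 0.09, adjusted p = 0.206 from limma and 0.136 with voom). Atp5f1a, the alpha subunit that alternates with beta, stood at 3725, 3483 and 3889.7 CPM in OP and at 3455, 3535 and 3538 CPM in OR rats. OP replicate 2 fell among the OR rats, and the log2 fold change was 0.12 (SE 0.08, adjusted p = 0.416).

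Atp5f1d, the delta subunit of the central stalk, had the largest log2 fold change of complex V. It stood at 531, 685 and 569 CPM in OP rats and at 496, 457 and 473 CPM in OR rats, with no overlap (0.37, SE 0.11, adjusted p = 0.118 from limma). Without OP replicate 2, the highest of them, it was 0.24. Atp5po, the oligomycin sensitivity protein of the outer stalk, stood at 778, 832 and 805 CPM in OP and at 742, 716 and 721 CPM in OR rats (0.20, SE 0.07, adjusted p = 0.171). Atp5md, a small membrane subunit, stood below OR rats in CPM without rescaling, at 23.6, 27.0 and 25.6 CPM against 31.2, 28.6 and 27.8 CPM. After rescaling between libraries the groups overlapped (−0.15, SE 0.10, adjusted p = 0.414). Atp5if1 encodes the inhibitor that stops the enzyme from running backwards, and it overlapped between the groups at 133, 169 and 137 CPM in OP and 145, 140 and 139.5 CPM in OR rats (0.09, SE 0.11, adjusted p = 0.656, and −0.04 without OP replicate 2).

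Assembly factors insert the cofactors and bring the subunits together. Of the 12 tested none was called in limma or with voom. An unadjusted p under 0.05 was reached by 1 higher (8.33%, against 10.6% of all genes) and 0 lower (11.7% of all genes). Cox14, which takes part in making the mitochondrially encoded subunit Cox1, stood at 52.7, 79.5 and 51.5 CPM in OP rats and at 46.5, 46.4 and 40.5 CPM in OR rats. The groups did not overlap and OP replicate 2 was far above the rest, with a log2 fold change of 0.48 (with an SE of 0.18, unadjusted p = 0.0251 and adjusted p = 0.163 from limma). Without OP replicate 2 it was 0.26. Cox10, which makes heme O for the oxidase, stood at 155, 122 and 150.4 CPM in OP and at 126, 124 and 134 CPM in OR rats. Here OP replicate 2 was the lowest rat (0.20, SE 0.09, adjusted p = 0.254). Cox7a2l, which helps complexes III and IV to join, had a log2 fold change of 0.15 (SE 0.09, and 0.06 without OP replicate 2), and Sdhaf2, which attaches flavin to Sdha, one of 0.10 (SE 0.08). Cox7a2l2, taken as a copy and not counted among the assembly factors, had one of 0.08 (SE 0.08, and 0.02 without OP replicate 2). It stood at 316.5, 350 and 344 CPM in OP and at 337, 326 and 329 CPM in OR rats. Whether this line held reads of other genes of subunit 7a was not tested.

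OP replicate 2 was the highest of the 6 rats in 35 of 58 members (60.3%, against 19.9% of all genes) and the lowest in 7 (12.1%, against 36.5% of all genes). The members did not move together in this rat. Relative to the mean of the other OP rats it was higher on the log2 scale by 0.64 in Cox6b2, 0.61 in Cox8a and Cox14 and 0.55 in Cox6a1, and it differed by −0.57 in Cox11, −0.55 in Cox4i2, −0.50 in Cox15 and −0.39 in Sdha. The median SD of the log2 level within a group was 0.125 in OP and 0.041 in OR rats, and 53 of 58 members were more spread in OP rats. The spread was not taken over all genes, so whether this is particular to the members was not tested. The fibroblast, atrial and skeletal muscle markers were also high in OP replicate 2, and their part in the result was not tested. Without it, 51 of 57 members (89.5%, against 50.3% of all genes) had a log2 fold change above 0.

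**Figure D5:**
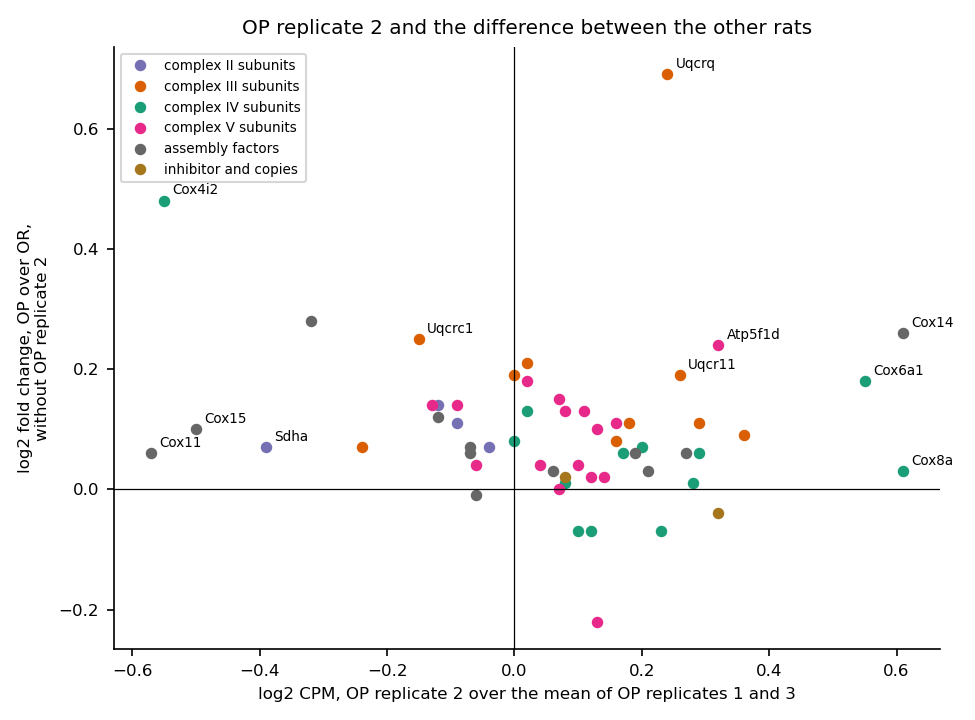
The 57 members tested without OP replicate 2 by the log2 ratio of CPM in OP replicate 2 to the mean of OP replicates 1 and 3 (horizontal axis) and by log2 fold change without OP replicate 2 (vertical axis), coloured by complex or role. Uqcrq (0.69 on the vertical axis) stands above the other members, and points lie on both sides of 0 on the horizontal axis, from −0.57 in Cox11 to 0.61 in Cox8a and Cox14.

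The other genes of the chain gave the following counts. Of 34 tested subunits of complex I, which feeds electrons from NADH into the chain, all had a log2 fold change above 0. Their median was 0.18 (0.12 without OP replicate 2), and 16 were higher at an unadjusted p under 0.05 (47.1%, against 10.6% of all genes). Ndufv3, a small subunit of its NADH-binding arm, was the 1 called there (2.94% of the 34, against 3.37% of all genes), at 209, 225 and 227 CPM in OP rats against 175, 163 and 169.9 CPM in OR rats (0.43, SE 0.07, adjusted p = 0.0256 from limma). The call of Ndufv3 was lost without OP replicate 3 or any OR rat (0.0674 to 0.122). Without OP replicate 2, 2 of the 34 were called higher, against 378 of all 13309 genes. The 13 protein genes of mitochondrial DNA had a median of 0.19 (0.06 without OP replicate 2), with none called in limma or with voom. At an unadjusted p under 0.05, 3 were higher (23.1%, against 10.6% of all genes) and 0 lower (11.7% of all genes). Without OP replicate 2, 1 of the 13 was called higher, Mt-nd6 (0.35, adjusted p = 0.0359 from limma), against 378 of all 13309 genes. The 13 genes summed to 80094, 92109 and 74416 CPM in OP and 74341, 72437 and 81281 CPM in OR rats, which overlapped. Of 26 other assembly factors of complexes II to V none was called in limma or with voom. An unadjusted p under 0.05 was reached by 6 higher (23.1%, against 10.6% of all genes) and 0 lower (11.7% of all genes). Without OP replicate 2, Pet100 (adjusted p = 0.0284 from limma) and Uqcc1 (0.0322), assembly factors of complexes IV and III, were called higher. These were 2 of the 26, against 378 of all 13309 genes called higher in that fit (5.82% were called in either direction). Pet100 was also called with robust variances (0.0442).

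Of 14 tested factors that act on respiratory genes, 3 fell (21.4%, against 1.87% of all genes called lower) and none rose: the coactivators Ppargc1a and Ppargc1b and the fatty acid receptor Ppara. Ppargc1a stood at 39.4, 34.5 and 43.2 CPM in OP rats and at 51.9, 59.1 and 66.3 CPM in OR rats (−0.55, SE 0.12, adjusted p = 0.0478 from limma). Ppargc1b stood at 20.9, 21.6 and 30.2 CPM in OP and at 46.4, 39.2 and 39.3 CPM in OR rats (−0.74, SE 0.14, adjusted p = 0.036), and Ppara at 30.1, 30.1 and 34.8 CPM in OP and at 41.5, 49.0 and 54.1 CPM in OR rats (−0.55, SE 0.12, adjusted p = 0.0489). In each of the 3 genes every OP rat lay below every OR rat, which held for 7 of the 14 factors and for 17.7% of all genes. No call was left without OP replicate 1 or any OR rat. Ppargc1b was the 1 called with voom (0.0363), with no filter (0.038) and without OP replicate 3 (0.0177), and with at least 10 reads in every library Ppara was no longer called (0.0504). The estrogen-related receptor alpha, Esrra, differed by 0.21 on the log2 scale (SE 0.08, adjusted p = 0.168 from limma). Every OP rat lay above every OR rat in Esrra, which held for 1 of the 14 factors and for 10.4% of all genes. Another receptor of that family, Esrrg, differed by −0.32 (SE 0.11, adjusted p = 0.153 from limma), with every OP rat below every OR rat. Nrf1 differed by −0.03 (SE 0.12, adjusted p = 0.904) and Gabpa by −0.14 (SE 0.15, adjusted p = 0.592). Of the 14 factors 3 had a log2 fold change above 0 (21.4%, against 50.5% of all genes).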

How the data were processed

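Myocardial RNA of 3 OP high-fat and 3 OR standard rats was sequenced, 1 library per rat, and the groups were compared as labelled. Trimming with Trimmomatic, mapping to Rnor 6.0 with STAR and counting per gene with HTSeq and Ensembl annotation were done by the authors. The deposited values are a score: each gene's reads brought by the authors to a library total of 20000000, then rounded up (columns sum to 20008273 to 20009023), not raw counts. CPM is this value divided by 20.

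Reads per library were recovered as the total for which 99.75% to 99.88% of the values above 0 were matched, exactly, by whole reads treated in this way. Because the values were scaled, limma 3.58.1 in R 4.3.3 was used in place of a count model: values were divided by TMM factors (0.952 to 1.03, trims of 30% and 5%), 4 was added (0.2 CPM, which draws fold changes of weak genes toward 0), and group means of the log2 values were estimated with a mean-variance trend. Fold changes are therefore on the scale of log2(value + 4). A gene was tested if it reached 1 CPM in 3 or more libraries (58 of 63 members). Sums and non-overlap were taken on CPM without TMM rescaling unless stated. Isoform ratios were compared with exact permutation tests in Python 3.11.15 with SciPy 1.17.1. The fit and the recovery of reads were tested on simulated data.

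The members and gene lists were chosen with earlier results of these data known. Named genes were the called member, the isoform pairs and, in each class, the 4 members with the smallest unadjusted p and the 2 with the highest mean CPM, and 31 of the genes this rule takes are reported, while the others are not reported here. Other members and genes outside the rule (Uqcr10, Uqcrh, Uqcrb, Cox6c, Cox7c, Atp5md, the genes around Uqcrq, Ndufv3, Mt-nd6, Pet100, Uqcc1, Ptprc, Esrra, Esrrg, Nrf1, Gabpa and the called factors) were chosen after their values were seen. All 61 member symbols were matched in RefSeq on GRCr8, where 12 overlap another protein-coding gene and 28 have copies named after them, so their reads may be shared. GRCr8 is not the build of the authors, so no gene coordinates are given, and promoter windows are those of RefSeq on GRCr8. Nothing says that the rats came from separate litters or cages, and p-values measure the spread between these rats.

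Alternatives were robust variances, pseudocounts of 1 and 20, median-of-ratios scaling, no rescaling, no filter, a minimum of 10 reads per library, voom on recovered reads, a replicate block and each library left out.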

Additional observations from a re-analysis of the deposited data

How the results depend on the processing

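Uqcrq was the called member with every scaling, filter, pseudocount and variance setting tried and with voom, and its call was lost in the fits without an OR rat. Leaving out each library in turn gave 0 to 2 members called, 57 to 775 genes called in all and a member median of 0.07 to 0.18 on the log2 scale. With no rescaling 311 of 465 called genes were lower (251 of 453 with TMM), and the median of all genes was −0.05 and that of the members 0.08. Under no rescaling the log2 fold changes of Uqcrc2 (−0.04) and Cox6a2 (−0.02) changed sign. When single libraries were left out, the log2 fold change ranged from −0.03 to 0.07 for Uqcrc2, −0.10 to 0.07 for Sdha, −0.07 to 0.09 for Cox6a2, −0.04 to 0.16 for Atp5if1, 0.69 to 0.87 for Uqcrq and 0.19 to 0.25 for Uqcrc1. The log2 difference in ratio ranged from −0.31 to 0.05 for Cox8b/Cox8a and −0.20 to 0.16 for Cox6b1/Cox6b2. The cause was not tested for any of these.

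On the log2 scale the summed level after TMM rescaling differed by 0.15 over the members, 0.21 in complex III and 0.16 in complex V (0.10, 0.16 and 0.12 without rescaling). Also without rescaling, complex V differed by 0.09 when Atp5f1b, its most abundant member, was left out, against 0.12 with it. The number of members in which every OP rat lay above every OR rat was 15 to 25 when single libraries were left out, a setting chosen after seeing the data. With fewer rats such separation is met more often. Without OP replicate 2 it held for 21 of 58 members and 17.9% of all genes, against 10.4% of all genes with every rat. For the other libraries the share of all genes was not taken, so those counts are not read as a result about the members.

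The replicate numbers name different rats. Same-numbered rats deviated together with correlations of 0.059, 0.075 and 0.127, so the numbers were not taken to pair them. With a replicate block 269 genes were called and Uqcrq remained called (adjusted p = 0.0227 from limma), as did Ppara (0.0484), while Ndufv3 (0.0642), Ppargc1a (0.0554) and Ppargc1b (0.0614) were not called. The median SE over the members was 0.09 on the log2 scale with 3 rats per group, and Cox6b2 (8 to 15 reads per library) had the widest 95% interval of them.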
